A study of Mus musculus with 38 samples.

Results

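The genes for 9 neuropeptides of hippocampal interneurons were followed through all 8 groups of a mouse hippocampus RNA-seq experiment. They were taken from a fixed list of symbols (Npy, Sst, Cck, Penk, Vip, Tac1, Tac2, Crh and Cort) matched by Ensembl identifier, and they are 9 of the 48709 genes with a read count in each mouse. All 9 passed the filter on low counts in each of the 14 comparisons tested.

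The 38 mice were wild type (WT, 18 mice) or carried the APPPS1ΔE9 transgenes (20 mice), a mouse model of Alzheimer's disease whose label reads APPdelta9, and they ate chow with anle138b, an oral small molecule, or placebo chow. The pre-plaque group ate its chow from 2 months, was analysed at 6 months of age and held 4 mice for each combination of genotype and chow. The post-plaque group was analysed at 10 months and held 10 WT mice, 5 on each chow, and 12 APPPS1ΔE9 mice, of which 5 ate placebo chow and 7 ate anle138b chow, given from 6 months of age. RNA came from whole hippocampus, so fewer cells of a type and less RNA per cell cannot be told apart. The promoter that drives the transgenes is not given in the sources used here.

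Neuropeptides are made as precursors, cut by proteases in the secretory pathway, stored in dense-core granules and released on strong activity to act on G protein-coupled receptors. In the hippocampus, somatostatin (Sst) and its relative cortistatin (Cort) mark dendrite-targeting interneurons, Vip marks interneurons that mainly contact other interneurons, and Cck marks a class of basket cells. Npy is made by several interneuron types and can be made by granule cells of the dentate gyrus, Penk (enkephalin precursor) is made by scattered interneurons and granule cells, and Cck is also made by pyramidal cells. Tac1 encodes substance P, Tac2 encodes neurokinin B and Crh encodes corticotropin-releasing hormone, all of which are made by subsets of hippocampal interneurons.

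Several of these genes are known to be induced by cyclic AMP and calcium signals through a sequence element near the start of transcription. The RefSeq promoter table (GRCm38.p6, 250 bases before to 50 after each start) holds 7 of the 9 genes, and Penk and Crh are not among them. The full palindrome TGACGTCA was present in Sst alone among these 7 and in 1.79% of all 32851 promoters. The shorter TGCGTCA, searched on both strands, was present in Cck, Cort and Tac1 and in 2.12% of all promoters, and it does not overlap the palindrome in any of them. The box TATAAA was present in Vip at 3 positions and in 13.6% of all promoters. The windows of 30 bases around each match are shown because 4 of the 7 genes hold 1 of these 2 spellings of the cyclic AMP element. Other spellings of the element were not searched for, in Vip or in the other genes. Vip holds a TATA box, and 1 of its 3 matches is shown. Capitals mark the motif, which starts 48, 20, 49, 199 and 30 bases before the annotated start in the order shown. A match describes the letters and is not evidence of binding. The Sst and Tac1 windows overlap an exon annotated by GENCODE.
Sst, chr16:23890874-23890903, minus strand: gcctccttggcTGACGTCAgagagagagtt
Cort, chr4:149126765-149126794, minus strand: gctccggcttgTGCGTCAccgcgtgagtgt
Cck, chr9:121495725-121495754, minus strand: tcctgctggacTGCGTCAgcactgggtaaa
Tac1, chr6:7554851-7554880, plus strand: ttccctaaaatTGCGTCAtttcgaacacaa
Vip, chr10:5639176-5639205, plus strand: aagcacaagcccTATAAAatgagagacttt

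In GRCm38 coordinates, the genes lie on 6 chromosomes. Sst spans chr16:23889573-23890958, Cort spans chr4:149125034-149126763, Npy spans chr6:49822710-49829507 and Penk spans chr4:4133531-4138819. Cck spans chr9:121489824-121495694, Vip spans chr10:5639218-5647617, Tac1 spans chr6:7554879-7565834, Tac2 spans chr10:127724478-127731768 and Crh spans chr3:19693401-19695396. Penk overlaps A830012C17Rik on the opposite strand, and the strand setting of the counting is not given in the sources used here. A830012C17Rik had at most 6 counts in any mouse.

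Levels are given as CPM, read counts scaled to a common library size with TMM factors over the 38 mice, and levels of different genes are compared only after division by exon length in kilobases. On that length-corrected scale Sst was the most abundant at 164 ± 40.5 (SD, n = 38), followed by Cck at 125 ± 16.5 and Npy at 56.8 ± 15.6. Penk stood at 20.03 ± 7.26 and Vip at 4.99 ± 1.56. Cort (2.3 ± 1.11), Tac2 (2.22 ± 0.799) and Tac1 (2.06 ± 0.843) were close together, and Crh was lowest at 0.624 ± 0.179. Only Penk and Vip, among neighbours in this order, had ranges that did not overlap. Sst exceeded Cck in 29 of 38 mice, Cort exceeded Tac2 in 18 of 38 and Tac2 exceeded Tac1 in 25 of 38, so the order within these pairs was not stable from mouse to mouse. The raw counts behind these values ran from 1885 to 5789 per mouse for Cck but from 7 to 43 for Crh and from 8 to 98 for Cort, so the last 2 carry the most counting error.

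**Figure D1:**
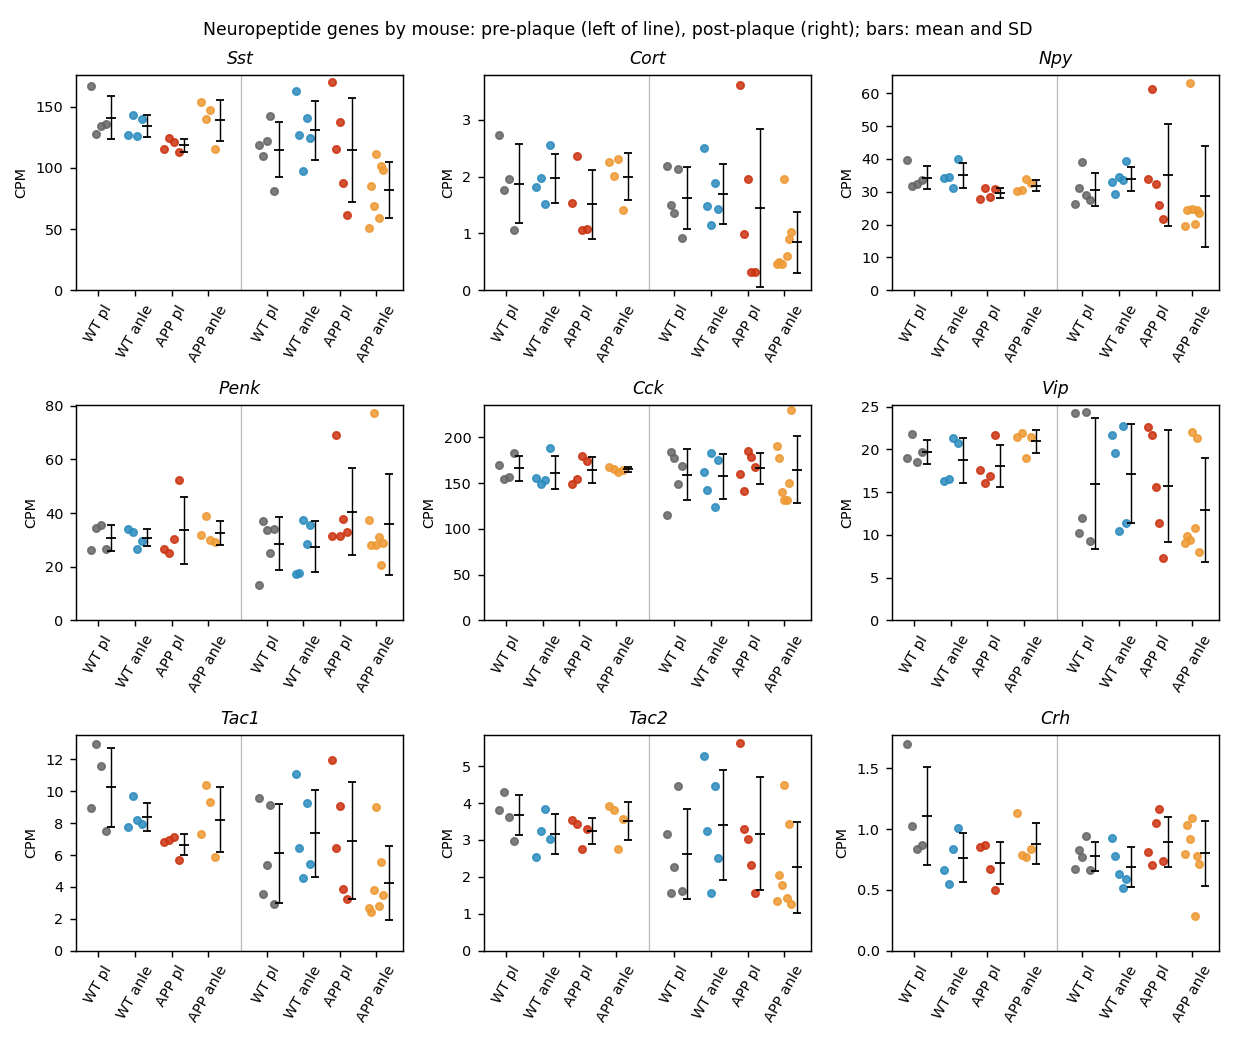
Level of each neuropeptide gene in each of the 38 mice (vertical axis, CPM from 0) by group (horizontal axis; pl, placebo; anle, anle138b; APP, APPPS1ΔE9), with the group mean and SD beside the points. Post-plaque values are spread more widely than pre-plaque values for most genes, and 2 post-plaque APPPS1ΔE9 mice stand above the rest in Npy and Penk.

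Total counts ran from 15847985 to 31895808 per mouse. App, whose transgene copy adds to the endogenous reads, was between 3235 and 4316 CPM in the APPPS1ΔE9 mice and between 1516 and 1806 CPM in the WT mice, with no overlap, and this holds for the 4 pre-plaque placebo-treated WT mice, whose title says WT although their genotype label names the transgene. Within each cohort and chow the genotypes shared no sequencing lane, so genotype and lane cannot be told apart there. Chow was tied to lane too. Pre-plaque APPPS1ΔE9 mice were in lane 5 on placebo chow and in lane 6 on anle138b chow, so chow and lane cannot be told apart in them. In the post-plaque cohort the chows shared a lane only through mouse 58 in APPPS1ΔE9 mice and mouse 56 in WT mice. The chow effects and interactions carry this limit. Xist was at least 1160 CPM in 12 mice (11 WT and 1 APPPS1ΔE9) and at most 5.35 CPM in the others, and among the 18 WT mice the ranges of high-Xist and low-Xist mice overlapped for each of the 9 genes, with medians of 34.3 and 31.1 CPM for Npy and of 1.83 and 1.53 CPM for Cort. High Xist went with genotype, in 11 of 18 WT and 1 of 20 APPPS1ΔE9 mice, so the 2 are partly confounded in the genotype comparisons. The paper describes its mice as male, whereas high Xist is the pattern of female cells, and the sex of these mice was not settled here. Ttr, a choroid plexus transcript, was 4090 CPM in an anle138b-treated APPPS1ΔE9 mouse, at most 243 CPM in the other post-plaque mice and ranged from 32.1 to 7447 CPM in the pre-plaque mice.

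No neuropeptide gene was called at an adjusted p under 0.1 in any of the 14 comparisons by edgeR's quasi-likelihood test with Benjamini-Hochberg adjustment over all genes. Of the 126 tests, 11 had an unadjusted p under 0.05, and the smallest adjusted p was 0.110. DESeq2 called 1 gene in each of 2 comparisons, Tac1 in the one and Sst in the other. Comparisons of genotype and of chow within a cohort share groups, so their values are given side by side and not as independent results.

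The first comparison asked how APPPS1ΔE9 mice differed from WT mice on placebo chow before plaques were abundant. None of the 9 genes passed the test, and Sst, Npy and Tac1 are given in full because their groups did not overlap. Sst was 113, 115, 121 and 124 CPM in the 4 APPPS1ΔE9 mice and 127, 134, 136 and 167 CPM in the 4 WT mice. Npy was 27.9, 28.5, 30.8 and 31.1 CPM against 31.9, 32.3, 33.6 and 39.5 CPM. Tac1 was 5.70, 6.83, 6.97 and 7.12 CPM against 7.52, 8.96, 11.6 and 13.0 CPM. In all 3 genes each APPPS1ΔE9 mouse lay below each WT mouse, and groups did not overlap in 6.38% of all genes tested. The log2 fold change was -0.24 for Sst (SE 0.08, adjusted p 0.360), -0.20 for Npy (SE 0.08, adjusted p 0.404) and -0.61 for Tac1 (SE 0.16, adjusted p 0.305) by edgeR. In this comparison 11.1% of all genes had an unadjusted p under 0.05, against 3 of the 9 neuropeptide genes, and 0.0715% were called. DESeq2 called Tac1 (adjusted p 0.0852), and so did edgeR without the filter on low counts (adjusted p 0.0425). In all, 8 genes had a fold change below 0 and Penk alone had one above 0, and the median over the 9 was -0.20 beside 0.00 over all genes.

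The Sst and Npy values depended on 1 WT mouse and on the setting. Without mouse 30 (replicate 1 of the placebo-treated WT mice) the log2 fold change was -0.15 for Sst and -0.12 for Npy. With Y-linked expression as a covariate it was -0.15 for Sst (SE 0.12) and -0.11 for Npy (SE 0.12), and high Xist was found in 3 of the 4 WT and 0 of the 4 APPPS1ΔE9 mice. With Prox1 as a covariate, a choice made after seeing the values, Sst was at -0.38, Npy at -0.32 and Tac1 at -0.38, none of them called. Markers of neighbouring tissue had fold changes below 0 in the same comparison, in 5 of 6 striatum genes (median -0.39), 6 of 6 thalamus genes (median -0.45) and 5 of 5 choroid plexus genes (median -1.26), none of them called. Prox1 was at -0.19 (adjusted p 0.389 by edgeR), and the 18 GABAergic genes had 7 fold changes above and 11 below 0 (median -0.03). The part of these in the values of Sst, Npy and Tac1 was not tested.

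Penk differed from this pattern through a single mouse. Its values were 25.01, 26.7, 30.2 and 52.2 CPM against 26.1, 26.7, 34.4 and 35.6 CPM in WT mice, and the highest value belonged to mouse 75 (replicate 4). The same mouse held the lowest Sst, Tac1 and Crh of the 16 pre-plaque mice. It also stood outside the other 15 pre-plaque mice in Drd1 (14.3 CPM, others at most 7.54) and in Rprm (68.5 CPM, others at most 31.8). Granule cell genes went in different directions in this mouse. Dsp (16.7 CPM, others at least 49.1), Calb1 (99.8 CPM, others at least 126) and Pdyn (10.7 CPM, others at least 10.9) were lowest. C1ql2 was highest (89.2 CPM, others at most 65.0), and Prox1 was 99.5 CPM, inside the range of the others. The part of these other genes in the Penk value was not tested.

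On anle138b chow, the same comparison of genotypes gave no group that separated. Sst was 115, 140, 147 and 153 CPM in APPPS1ΔE9 mice and 126, 127, 140 and 143 CPM in WT mice. Tac1 was 5.85, 7.35, 9.30 and 10.4 CPM against 7.76, 7.95, 8.23 and 9.69 CPM. Npy was 30.3, 30.5, 32.8 and 33.7 CPM against 31.04, 34.3, 34.5 and 39.9 CPM, with a log2 fold change of -0.15 (95% interval -0.31 to -0.00, normal approximation). None of the 9 genes separated the groups, against 3.72% of all genes, and 0.047% of all genes were called. Their median fold change was 0.03 beside -0.00 over all genes.

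No neuropeptide gene passed the test for an effect of anle138b within a genotype in the pre-plaque group. In WT mice no gene at all was called (0%), and the 9 fold changes lay between -0.50 (Crh) and 0.09 (Cort). In APPPS1ΔE9 mice Sst had the only unadjusted p under 0.05, against 13.1% of all genes, with a log2 fold change of 0.21 (SE 0.08, adjusted p 0.345 by edgeR), and 0.0529% of all genes were called. The values of Sst given above show that 3 of the 4 anle138b-treated APPPS1ΔE9 mice exceeded every placebo-treated one. The interaction of genotype and chow had an unadjusted p under 0.05 for Tac1 alone, against 7.99% of all genes, with a log2 difference of 0.57 (SE 0.25, adjusted p 0.618 by edgeR), and 0% of genes were called. Sst had 0.28 for the same interaction (95% interval 0.02 to 0.54 by the normal approximation, unadjusted p 0.052 by edgeR) and was not called. A difference between the genotype effects on the 2 chows was therefore not shown. Over both chows, Npy had a genotype effect of -0.18 (SE 0.06, adjusted p 0.334 by edgeR) and Tac1 of -0.33 (SE 0.14, adjusted p 0.450 by edgeR). These 2 of 9 stand beside 10.5% of all genes with an unadjusted p under 0.05 and 0.17% called.

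In the post-plaque group, the placebo-treated APPPS1ΔE9 mice did not separate from WT in any of the 9 genes, against 1.41% of all genes that separated and 0.324% that were called. The peptides of the somatostatin family spread widely in both genotypes. Sst was 61.5, 87.8, 116, 137 and 170 CPM in APPPS1ΔE9 mice and 81.0, 109.3, 119, 122 and 143 CPM in WT mice. Cort was 0.321, 0.327, 0.993, 1.97 and 3.62 CPM against 0.914, 1.36, 1.497, 2.14 and 2.20 CPM. Both the lowest and the highest mouse of each of these genes was an APPPS1ΔE9 mouse. Of the 9 genes, 6 had a fold change above 0 and 3 had one below 0, with a median of 0.18 beside -0.00 over all genes. No member had an unadjusted p under 0.05, and the 95% interval of the Sst log2 fold change ran from -0.50 to 0.47 and that of Cort from -1.32 to 1.01, so sizeable effects in either direction remain within the error.

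On anle138b chow, none of the 9 genes passed the test between post-plaque APPPS1ΔE9 and WT mice, and Sst, Cort and Tac1 had an unadjusted p under 0.05. Sst had a lowest, median and highest value of 51.0, 84.8 and 111 CPM in the 7 APPPS1ΔE9 mice, and the 5 WT mice had 97.3, 124, 127, 141 and 163 CPM. Cort ran from 0.460 over a median of 0.607 to 1.958 CPM against 1.14, 1.43, 1.48, 1.89 and 2.50 CPM in WT mice. Tac1 ran from 2.42 over a median of 3.49 to 9.01 CPM against 4.54, 5.47, 6.44, 9.30 and 11.1 CPM. The groups overlapped in each gene, and in Cort only mouse 97 (replicate 4) lay inside the WT range. The log2 fold change was -0.68 for Sst (SE 0.19, adjusted p 0.320), -1.002 for Cort (SE 0.35, adjusted p 0.646) and -0.80 for Tac1 (SE 0.34, adjusted p 0.821) by edgeR. These 3 of 9 stand beside 5.78% of all genes with an unadjusted p under 0.05 and 0.723% called, while 0.892% of all genes and none of the 9 separated the groups. DESeq2 called Sst (adjusted p 0.0597). When each mouse was left out in turn, Cort was called by edgeR at -1.34 (adjusted p 0.0490) without mouse 97. That refit drops the only APPPS1ΔE9 mouse inside the WT range of Cort, and such refits called 63 to 151 genes in all.

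In the same comparison 6 of the 9 neuropeptide genes had a fold change below 0 and 3 had one above 0 (median -0.42). Those above 0 were Penk at 0.37, Crh at 0.20 and Cck at 0.05. The other interneuron genes had fold changes of the same sign as Sst, Cort and Tac1. All 18 genes of a list of GABAergic interneuron genes other than peptides (Gad1, Pvalb and Elfn1 among them) had a fold change below 0 in that comparison, with a median of -0.25 beside -0.00 over all genes, and none was called by edgeR, with 4 at an unadjusted p under 0.05. The summed level of that list ran from 1179 to 1776 CPM in the anle138b-treated APPPS1ΔE9 mice and from 1327 to 1942 CPM in the anle138b-treated WT mice. The list of hippocampal principal cell genes had 7 of 10 fold changes above 0, with a median of 0.29, and a summed level of 555 to 1112 CPM against 603 to 995 CPM. With the granule cell marker Prox1 as a covariate, a choice made after seeing the values, Sst was at -0.56, Cort at -0.75 and Tac1 at -0.51, none of them called.

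Npy and Penk behaved differently from the somatostatin family, with a split among the post-plaque APPPS1ΔE9 mice. Npy ran from 26.4 to 39.4 CPM in the 10 WT mice of that cohort. Of the 12 APPPS1ΔE9 mice, 8 lay below this range, 2 lay within it and 2 lay above it. Of the 7 anle138b-treated mice, 6 had 19.7 to 24.8 CPM and mouse 93 (replicate 3) had 63.2 CPM, and the 5 placebo-treated mice had 21.7, 25.98, 32.5, 33.9 and, in mouse 86 (replicate 2), 61.4 CPM. The same 2 mice had the highest Penk, with 77.1 CPM in mouse 93 and 69.2 CPM in mouse 86 against 13.1 to 37.6 CPM in the other 20 post-plaque mice. The genotype effect on Npy in anle138b-treated mice was -0.26 (95% interval -0.78 to 0.26) with all mice and was not called. It was -0.58 (SE 0.09, adjusted p 0.0109 by edgeR) without mouse 93, a choice made after its value was seen, and over both chows it was -0.37 (SE 0.10, adjusted p 0.0974 by edgeR) without mice 86 and 93 against -0.06 with them. A single mouse therefore decided the call for Npy. The genotype effect on Penk over both chows was 0.43 (95% interval -0.02 to 0.87) with all mice and 0.13 without these 2.

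**Figure D2:**
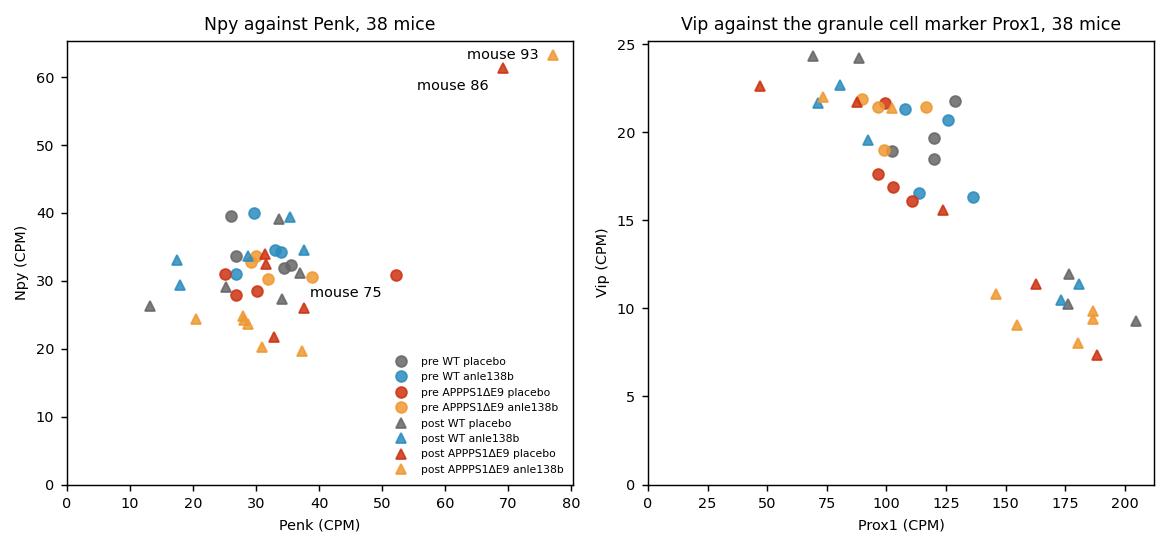
Left, Npy against Penk; right, Vip against the granule cell marker Prox1 (all axes in CPM, from 0). Each point is a mouse, circles are pre-plaque, triangles post-plaque and colours mark genotype and chow. Mice 86 and 93 lie apart in Npy and Penk, and the post-plaque mice fall into a set of low Vip and high Prox1 and a set of high Vip and lower Prox1.

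Mice 86 and 93 shared further values. Nptx2, which binds AMPA receptors and is induced by activity, was 56.6 CPM in mouse 86 and 51.2 CPM in mouse 93 against at most 45.2 CPM in the other 20 post-plaque mice. Rprm was 66.9 and 59.4 CPM against at most 54.3 CPM, and the dopamine receptor Drd1 was 9.47 and 21.1 CPM against at most 9.10 CPM. Calb1, a calcium-binding protein of granule cells, was 65.6 CPM in mouse 93 against at least 87.7 CPM in those 20, while in mouse 86 it was 116 CPM, inside their range. Other granule cell genes were not low in mouse 93. C1ql2 was 110.5 CPM (those 20 at most 108.3) and Pdyn was 27.3 CPM (at most 25.4). Prox1 (186 CPM) and Dsp (77.3 CPM) lay inside the range of those 20. In mouse 86 all of C1ql2, Pdyn, Prox1 and Dsp lay inside it. The activity-induced Fos was 13.3 and 7.40 CPM, both inside the range of the others. Mouse 93 was also the only APPPS1ΔE9 mouse with high Xist (1379 CPM). The part of any of these in the Npy and Penk values was not tested. The genotype effect on Penk in the anle138b-treated mice was 0.37 (95% interval -0.25 to 1.001) and was not called, and with Y-linked expression as a covariate it was 0.81 and called (adjusted p 0.0446 by edgeR).

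Anle138b had no called effect on any gene in post-plaque WT mice (0% of all genes) or in post-plaque APPPS1ΔE9 mice (0%). In APPPS1ΔE9 mice all 9 neuropeptide genes had a fold change below 0, with a median of -0.29 beside 0.00 over all genes. In the same comparison 17 of 18 GABAergic genes (median -0.19) and 10 of 10 activity-regulated genes (median -0.34) had a fold change below 0, and 6 of 6 thalamus genes (median 0.11) and 5 of 5 choroid plexus genes (median 2.32) had one above 0, none of them called. Their part in the result was not tested. The values ran from -0.01 for Cck to -0.77 for Cort, with Sst at -0.48 (95% interval -0.97 to 0.01), and no unadjusted p was under 0.05. The post-plaque interaction of genotype and chow called 0% of genes. Sst was at -0.67 (95% interval -1.31 to -0.03 by the normal approximation, unadjusted p 0.054 by edgeR). The larger Sst effect on anle138b chow was therefore not shown to differ from that on placebo chow. Over both chows Sst was at -0.38 (SE 0.17, adjusted p 0.652 by edgeR), 1 of 9 beside 7.16% of all genes with an unadjusted p under 0.05 and 1.54% called.

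**Figure D3:**
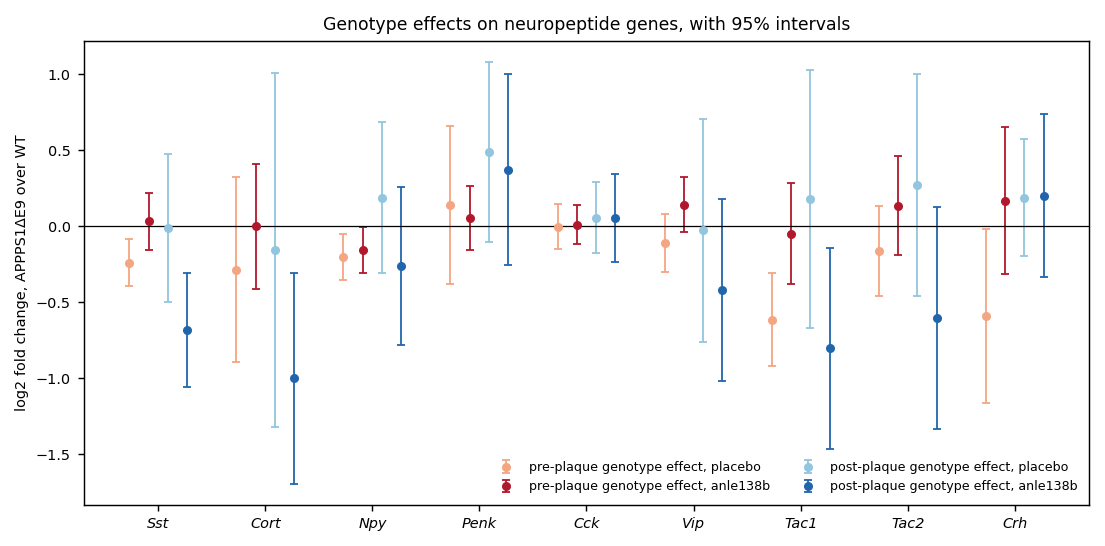
Log2 fold change of APPPS1ΔE9 over WT mice (vertical axis) for each neuropeptide gene (horizontal axis) in the 4 comparisons of cohort and chow, with 95% intervals by the normal approximation. The intervals are wider post-plaque than pre-plaque for most genes but not for Crh on placebo chow, and Sst in anle138b-treated post-plaque mice lies at -0.68.

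The genotype effect of the post-plaque cohort minus that of the pre-plaque cohort was called for none of the 9 genes and for 0.15% of all genes, and Sst was at -0.27 and Npy at 0.13. Between WT mice of the 2 cohorts, all 9 genes were lower at 10 months, from -0.05 for Cck to -0.48 for Tac1 (adjusted p 0.110 by edgeR), and none was called, while 49.2% of all genes were. Age and cohort cannot be told apart there, and the choroid plexus genes of the tissue piece differed too, with Ttr at -5.97. With Prox1 as a covariate, a choice made after seeing the values, 10218 of 17329 genes were called and 5 of the 9 were called lower, among them Vip at -0.30 (adjusted p 0.00152 by edgeR) and Tac1 at -0.56 (adjusted p 0.00201 by edgeR).

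The 9 genes differed in how much they varied between mice of 1 group. The SD of log2 CPM around the group means was larger in the post-plaque than in the pre-plaque cohort, by 4.003-fold for Vip, 3.80-fold for Npy, 3.12-fold for Tac2 and 3.01-fold for Sst, against a median of 1.23-fold over all genes. Crh, at 1.13-fold, was the exception. Vip shows what the spread looks like. In the 16 pre-plaque mice it ran from 16.1 to 21.9 CPM, whereas in the post-plaque cohort 12 mice had 7.36 to 11.9 CPM, 10 had 15.6 to 24.4 CPM and none lay between. The 12 low mice came from all 4 groups, with 5 of 7 anle138b-treated and 2 of 5 placebo-treated APPPS1ΔE9 mice, 2 of 5 anle138b-treated WT mice and 3 of 5 placebo-treated WT mice.

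The granule cell marker Prox1 separated the same mice. It ran from 146 to 204 CPM in the 12 low-Vip mice, from 47.0 to 124 CPM in the 10 high-Vip mice and from 89.8 to 136 CPM in the pre-plaque mice. No tested correlation of a neuropeptide gene with Vip or Prox1 is given for the post-plaque mice, because they fall into separated sets. The neocortex marker Fezf2 also spread more widely, from 13.8 to 51.9 CPM post-plaque against 26.1 to 40.8 CPM pre-plaque. The list of neocortex genes summed to 65.4 to 156 CPM post-plaque and to 89.3 to 149 CPM pre-plaque. The shares of granule cells and of neighbouring tissue in each piece were not measured, and their part in these values was not tested.

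Correlations between mice were taken after subtraction of the group means. For the relatives Sst and Cort, over the 22 post-plaque mice r was 0.87 and rho 0.88 (adjusted permutation p 0.00027 and 0.00022), and r was 0.86 without the 2 mice farthest in Sst. This was not particular to the relatives, since Tac1 with Cort had r = 0.87 and rho = 0.88 (adjusted permutation p 0.00018 and 0.00022; r = 0.83 without the 2 farthest) and Sst with Tac1 had r = 0.83 and rho = 0.81 (adjusted permutation p 0.00022 for both; r = 0.82 without the 2 farthest). The separation of the mice by Vip was not removed from these post-plaque values, and its part in them and in their p-values was not tested. Taken apart without a test, the 12 low-Vip and 10 high-Vip mice had r of 0.71 and 0.88 for Sst with Cort. They had 0.60 and 0.81 for Tac1 with Cort and 0.62 and 0.76 for Sst with Tac1. For Sst and Cort over the 16 pre-plaque mice r was 0.65 and rho 0.68 (adjusted permutation p 0.0587 and 0.0411), and r was 0.48 without the 2 farthest. The adjustment covers 90 relations, each tested with 100000 permutations within groups. By Pearson's r, no other relation among the members or with Prox1 passed an adjusted p of 0.05 in the pre-plaque mice, nor did this one.

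Npy and Penk had r = 0.69 and rho = 0.46 in the post-plaque mice (adjusted permutation p 0.0235 and 0.110). Leaving out the 2 mice farthest in Npy lowered r to 0.33, so the relation rests on mice 86 and 93. In the pre-plaque mice r was -0.11.

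The genes most like each member were taken as the 3 with the highest r of log2 CPM deviations over all 38 mice, among 15028 genes with a mean of at least 1 CPM, as a description without a test that includes the separated post-plaque sets. For Vip they included Ccn3 (r = 0.97) and Gabra3 (0.97), with 0.68 and 0.74 in the 16 pre-plaque mice. For Sst they were Dtx1 (0.88), Elfn1 (0.85) and Grin2d (0.85), with 0.58, 0.38 and 0.66 in the pre-plaque mice. For Cort they were Cdk2ap1 (0.86), Kif26a (0.84) and Sst (0.84). For Tac1 they were Mtss1 (0.92), Efna5 (0.92) and AW551984 (0.91), and for Tac2 they were Rab3b (0.93), Grik1 (0.93) and Samd10 (0.91). Npy had the weakest pre-plaque likeness, since its nearest gene Necab3 (0.73 over 38 mice) fell to -0.03 in the pre-plaque mice. Penk was closest to Ppl (0.81), Igsf9 (0.81) and Sv2c (0.80), Cck to B4gat1 (0.89), Med28 (0.87) and Kctd13 (0.86), and Crh to Higd2a (0.61), Tsta3 (0.60) and Plpbp (0.59).

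Other genes of the peptide system were read from fixed lists. Among the 19 receptor genes (up to 18 passing the filter), the 12 processing and granule genes and 10 further peptide genes, a single gene was called by edgeR outside the age comparison. It was Pdyn (dynorphin precursor), at -0.42 (SE 0.08, adjusted p 0.0469) in pre-plaque APPPS1ΔE9 mice over both chows. In pre-plaque placebo-treated mice Pdyn was at -0.55 (adjusted p 0.128 by edgeR), and Cartpt at -1.16 (adjusted p 0.282 by edgeR), neither called. The activity-regulated genes had 1 call, Fos at 1.52 (SE 0.38, adjusted p 0.0512 by edgeR) in post-plaque APPPS1ΔE9 mice over both chows. Between WT cohorts, where 49.2% of all genes were called, the receptors had 5 of 17 called (Npy1r at 0.36, Npy5r at 0.22 and Vipr1 at 0.36 higher at 10 months, Vipr2 at -0.85 and Crhr2 at -0.92 lower), the processing genes had 4 of 12 and the other peptides 3 of 10, all of these lower. Lists for striatum, thalamus, medial habenula, hypothalamus, neocortex and choroid plexus had no call outside the age comparison. Pomc, on the hypothalamus list, reached 304 CPM in 1 post-plaque placebo-treated WT mouse.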

How the data were processed

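Whole-hippocampus mRNA of 38 mice was measured with TruSeq libraries. The authors mapped the reads to mm10 with STAR and counted them per gene with HTSeq, and they deposited raw read counts for 48709 genes in each mouse, without normalization. Annotation release and strand setting are not given in the sources used here.

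Counts were filtered with filterByExpr (minimum count 10, minimum total 15), scaled with TMM and tested with edgeR 4.0.16 quasi-likelihood fits in R 4.3.3, with Benjamini-Hochberg adjustment over all genes tested and calls at an adjusted p under 0.1. SEs are the fold change divided by the root of F, and 95% intervals use the normal quantile. Library totals ran from 15847985 to 31895808, and each mouse is 1 replicate. The labels do not say more about how replicates were drawn. Pearson and Spearman correlations used 100000 permutations within groups. Both tools were tested on simulated data.

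Fold change, SE and adjusted p are given for members with an unadjusted p under 0.05, and list genes are named where called. Members and lists were chosen with earlier results of these data known. Alternatives were DESeq2 1.42.0, RLE factors, no low-count filter, an adjusted p under 0.05, Y-linked or Prox1 covariates, one joint model per cohort, single lanes, low-Xist mice, a replicate block, and leaving out mice. The 4 mice whose title and genotype label disagree were grouped by title. One gene among those most like Vip is not reported here.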

Additional observations from a re-analysis of the deposited data

Results flagged for a closer look

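In 6 of 72 gene and group combinations, 1 mouse lay far from the others of its group by Dixon's test, where about 5% would be picked out by chance. Npy was 63.2 CPM in anle138b-treated post-plaque APPPS1ΔE9 mouse 93, against 19.7 to 24.8 CPM in the other 6 mice of its group. Penk was 77.1 CPM in the same mouse, against 20.5 to 37.2 CPM, and 69.2 CPM in placebo-treated post-plaque APPPS1ΔE9 mouse 86, against 31.3 to 37.6 CPM in the other 4. Cort was 1.958 CPM in anle138b-treated post-plaque APPPS1ΔE9 mouse 97, against 0.460 to 1.03 CPM. The remaining values are small in size. Cck was 188 CPM in anle138b-treated pre-plaque WT mouse 83, against 149 to 155 CPM, and Vip was 19.01 CPM in anle138b-treated pre-plaque APPPS1ΔE9 mouse 27, against 21.4 to 21.9 CPM. What sets these mice apart was not tested.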

How the results depend on the processing

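The main count of called members was 0 in all 14 comparisons. It became 1 in pre-plaque placebo-treated mice with DESeq2 and without the low-count filter (Tac1 in both), 1 in post-plaque anle138b-treated mice with DESeq2 (Sst) and with the Y-linked covariate (Penk), and 1 there and 1 over both chows without mice 86 and 93 (Npy in both). It became 5 in the WT age comparison with Prox1 as covariate. Leaving out each mouse in turn gave 0 to 1 in post-plaque anle138b-treated mice, with 1 without mouse 93 (Npy) and without mouse 97 (Cort), and 0 in the other pairwise comparisons. This was run for the 8 pairwise comparisons and not for the 6 others. With a replicate block the count was 0 in all 14. The titles' numbers were not treated as pairs. In no comparison did every same-numbered pair correlate above 0.1, but 4 of 5 did for post-plaque chow in WT mice (highest 0.68). This check cannot exclude a pairing, because differences in tissue between mice also enter these correlations. No call on a member changed under the block. Over all genes, counts moved by over 1.5 times from those of edgeR as follows. In pre-plaque placebo-treated mice 12 became 91 with DESeq2, 110 unfiltered, 4 with the Y-linked covariate, 5 with Prox1 and 35 in a joint model. In pre-plaque anle138b-treated mice 8 became 42 with DESeq2 and 13 with the replicate block. For pre-plaque chow in APPPS1ΔE9 mice 9 became 208 with DESeq2, 120 unfiltered, 94 with the Y-linked covariate, 16 with Prox1 and 3 in a joint model, and in WT mice 0 became 2 with DESeq2 and 1 in lane 4. In post-plaque placebo-treated mice 55 became 116 with DESeq2, 14 with the Y-linked covariate, 25 with the replicate block and 157 with Prox1. In post-plaque anle138b-treated mice 124 became 188, 272 and 20 with DESeq2, the Y-linked covariate and the replicate block. For genotype over both chows 29 became 222, 7 and 9 pre-plaque with DESeq2, the Y-linked covariate and Prox1, and 268 became 495 post-plaque with Prox1 and 136 in low-Xist mice. The interactions went from 0 to 28 pre-plaque and 2 post-plaque with DESeq2, post-plaque chow in WT mice from 0 to 1 in lane 4, and the cohort difference from 27 to 58 with DESeq2, 12 unfiltered and 17 without mice 86 and 93. Leaving out 1 mouse gave 6 to 205 calls in pre-plaque placebo-treated mice, 9 to 44 in pre-plaque anle138b-treated mice, 6 to 317 and 0 to 2 for pre-plaque chow in APPPS1ΔE9 and WT mice, 37 to 67 in post-plaque placebo-treated mice and 63 to 151 in post-plaque anle138b-treated mice. No direction of a named member reversed. The causes of these shifts were not tested. Depth limits Crh and Cort most, with as few as 7 and 8 counts in a mouse.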
